A study of Caenorhabditis elegans with 11 samples.

Results

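The 5 genes kcnl-1, nlp-25, T22F3.11, scb-1 and T12D8.5 are described here, out of 46926 in the deposited count table of whole C. elegans larvae. All but nlp-25 were chosen by their measured values in these libraries: they were higher in the nhr-180 mutant than in wildtype and had a strongly negative interaction, which means that the nhr-180 mutation raised them less, or not at all, where atfs-1 was also lost. The gene nlp-25 was chosen because it lies next to kcnl-1. All 5 are in the deposited TPM table of 18798 genes and passed the filter on low counts that left 16013 genes for testing. These libraries themselves chose all but nlp-25, which was taken with earlier results of these data known. The levels and fold changes of all 5 are therefore given as a description, with no p-value.

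The data are RNA sequencing counts from 11 libraries of whole animals at the last larval stage (L4), grown on HT115 bacteria. Wildtype, named N2 in the library names, had 3 libraries, atfs-1(null) 3 and nhr-180(cmh19) 2, which are numbered as replicates 2 and 3. Animals carrying both mutations, called the double mutant here, had 3. The labels number the libraries as biological replicates and name no shared day or batch, so the spread is that between these samples. Each mutant group is known by its genotype alone, and the mutation cannot be told apart from anything else particular to that worm stock.

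ATFS-1, the product of atfs-1, switches on genes of the mitochondrial unfolded protein response: the protein is normally imported into mitochondria, and it reaches the nucleus when import fails. The gene nhr-180 belongs to the large worm family of nuclear hormone receptors, which are transcription factors. Of the genes described, kcnl-1 belongs to the small-conductance calcium-activated potassium channels, which open when calcium inside the cell rises and let potassium out. The gene nlp-25 encodes a neuropeptide-like protein, from a group of short secreted peptide precursors of which several are made by the epidermis. The gene scb-1 is known from natural differences between worm strains in their response to bleomycin, a drug that breaks DNA. The sources used here give no role for T22F3.11 or T12D8.5.

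Total counts ranged from 20860822 to 22921602 per library. The atfs-1 transcript had a wildtype mean of 53.7 ± 1.30 CPM (SD, n = 3) and an nhr-180 mean of 44.1 ± 4.67 CPM (SD, n = 2). In atfs-1(null) and double mutant libraries it was 2.71 ± 2.01 and 3.09 ± 0.512 CPM (SD, n = 3 each). For the nhr-180 transcript the means were 3.71 ± 0.573 CPM (wildtype) and 4.62 ± 0.455 CPM (atfs-1(null), n = 3 each), against 0.338 ± 0.0983 CPM for nhr-180 (n = 2) and 0.494 ± 0.0697 CPM for the double mutant (n = 3). CPM scales the count by the library size after TMM adjustment. On the second principal component, which held 20.5% of the variance, atfs-1(null) replicate 1 and wildtype replicate 2 stood apart from the other libraries of their genotypes, and atfs-1(null) replicate 1 lay with the nhr-180 libraries.

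The potassium channel gene kcnl-1 (WBGene00007176, chromosome V, 19565382 to 19606124 on the plus strand in WBcel235) was at a low level in every library except the nhr-180 ones. Wildtype replicates 1 to 3 held 10.5, 9.90 and 9.60 CPM, and atfs-1(null) replicates 1 to 3 held 5.29, 11.8 and 10.7 CPM. In replicates 2 and 3 of nhr-180 it reached 129.7 and 117.6 CPM, and the double mutant libraries 7.40, 5.36 and 8.84 CPM. Both nhr-180 libraries thus stood far above the other 9, among which atfs-1(null) overlapped both other genotypes and every double mutant library lay just below every wildtype one. The mean of the nhr-180 libraries was 12.4 times that of wildtype (log2 fold change 3.63 ± 0.30 SE) and 17.17 times that of the double mutant. Adding the nhr-180 mutation to atfs-1(null) gave a log2 fold change of -0.36 ± 0.27. Loss of atfs-1 alone gave -0.11 ± 0.27, a value whose sign depended on atfs-1(null) replicate 1, the lowest library of its group: it was 0.15 without that library.

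The gene nlp-25 (WBGene00003763, chromosome V, 19606180 to 19608419) lies on the same strand just after kcnl-1, with 55 bases between their annotated ends. It held 9.75, 4.35 and 6.75 CPM in the wildtype libraries and 13.3, 15.95 and 10.2 CPM in atfs-1(null). The nhr-180 libraries held 81.0 and 83.2 CPM and those of the double mutant 20.99, 22.3 and 14.6 CPM. The nhr-180 libraries were again the highest, but the other genotypes were not level: every wildtype library lay below every atfs-1(null) library, and the double mutant overlapped atfs-1(null) and lay above wildtype. The log2 fold change of nhr-180 against wildtype was 3.56 ± 0.31, nearly that of kcnl-1. The nhr-180 mutation in the atfs-1(null) background gave 0.56 ± 0.27, so that nlp-25 alone among the 5 genes had a positive value there. The double mutant stood at 1.47 ± 0.28 above wildtype on the log2 scale.

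Per transcript length the adjacent genes were close to each other in the nhr-180 libraries and not in the double mutant. The ratio of nlp-25 to kcnl-1 TPM was 1.30 and 1.47 in the nhr-180 libraries and 1.94, 0.915 and 1.46 in wildtype. In the double mutant it was 5.91, 8.65 and 3.43, above every wildtype and nhr-180 library. In atfs-1(null) it was 5.22, 2.83 and 1.97. Both genes therefore rose with the nhr-180 mutation by a like factor, while nlp-25 exceeded kcnl-1 more in the libraries that lacked atfs-1. In atfs-1(null) replicate 3 the ratio of 1.97 was barely above the 1.94 of wildtype replicate 1, so only the double mutant was clearly apart. How reads that span both genes were counted was not given in the sources used here, and a part of the counts of one could belong to the other.

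T22F3.11 (WBGene00020700, chromosome V, 3612158 to 3614553 on the minus strand) was nearly silent outside the nhr-180 libraries. The wildtype libraries held 13, 14 and 7 raw counts, the atfs-1(null) libraries 25, 18 and 21, and the double mutant libraries 14, 15 and 11. The nhr-180 libraries held 832 and 614, or 37.2 and 27.8 CPM, against 0.350 to 1.05 CPM in the other 9 libraries. No library of another genotype came near these. The nhr-180 mutant stood 5.90 ± 0.26 above wildtype on the log2 scale, the second largest rise among the 16013 genes, and the double mutant 0.11 ± 0.30 above wildtype, with overlapping libraries. The atfs-1(null) libraries lay slightly above wildtype, with no overlap and a log2 fold change of 0.75 ± 0.28, at counts where a few reads move the value.

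The gene scb-1 (WBGene00010407, chromosome V, 11118766 to 11119705 on the minus strand) behaved differently: it was high in every mutant genotype. Wildtype held 3.98, 4.07 and 4.30 CPM and nhr-180 20.5 and 20.7 CPM. The atfs-1(null) libraries held 29.9, 25.1 and 22.2 CPM and the double mutant libraries 21.3, 22.7 and 17.59 CPM. Wildtype lay below all 8 mutant libraries, and the nhr-180 and double mutant means were equal within their spread, at 20.6 ± 0.148 and 20.5 ± 2.64 CPM (SD, n = 2 and 3). The log2 fold change against wildtype was 2.32 ± 0.18 in nhr-180, 2.64 ± 0.17 in atfs-1(null) and 2.32 ± 0.17 in the double mutant. For scb-1 the negative interaction thus meant that the nhr-180 mutation added no rise to a gene already raised by loss of atfs-1 (-0.33 ± 0.15), and not that the rise needed atfs-1 to be seen above wildtype.

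T12D8.5 (WBGene00011733, chromosome III, 13625972 to 13626786 on the minus strand) lay between these forms. The wildtype libraries held 7.498, 7.12 and 7.85 CPM and the atfs-1(null) libraries 17.92, 15.7 and 19.1 CPM. The nhr-180 libraries held 28.9 and 24.7 CPM and the double mutant libraries 9.61, 8.25 and 11.9 CPM. No 2 genotypes overlapped, in the order wildtype, double mutant, atfs-1(null), nhr-180. Each mutation alone raised the gene, by 1.23 ± 0.17 for atfs-1(null) and 1.84 ± 0.18 for nhr-180 on the log2 scale, while the double mutant was only 0.40 ± 0.17 above wildtype and 0.83 below atfs-1(null) (log2 fold change -0.83 ± 0.17).

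**Figure D1:**
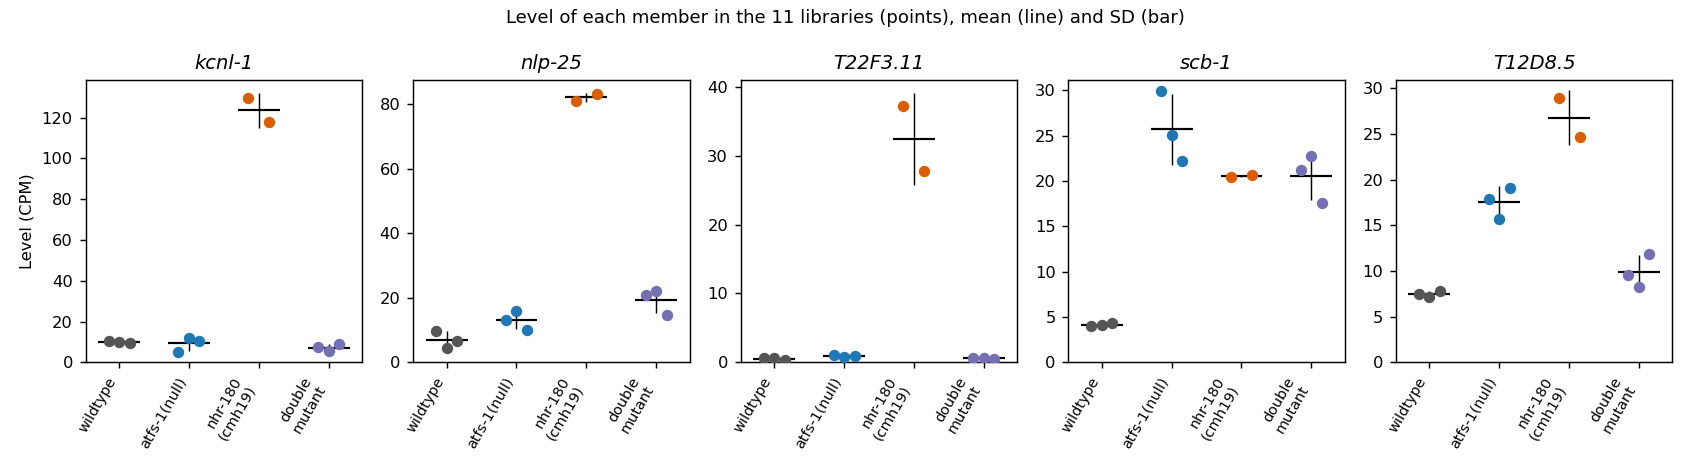
Level of the 5 genes in CPM (linear axes, 1 scale per gene), with 1 point per library, the genotype mean as a line and the SD as a bar. In kcnl-1, nlp-25 and T22F3.11 the 2 nhr-180 libraries stand apart from all others, whereas scb-1 is between 17.59 and 29.9 CPM in all mutant libraries and T12D8.5 is also raised in atfs-1(null).

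**Figure D2:**
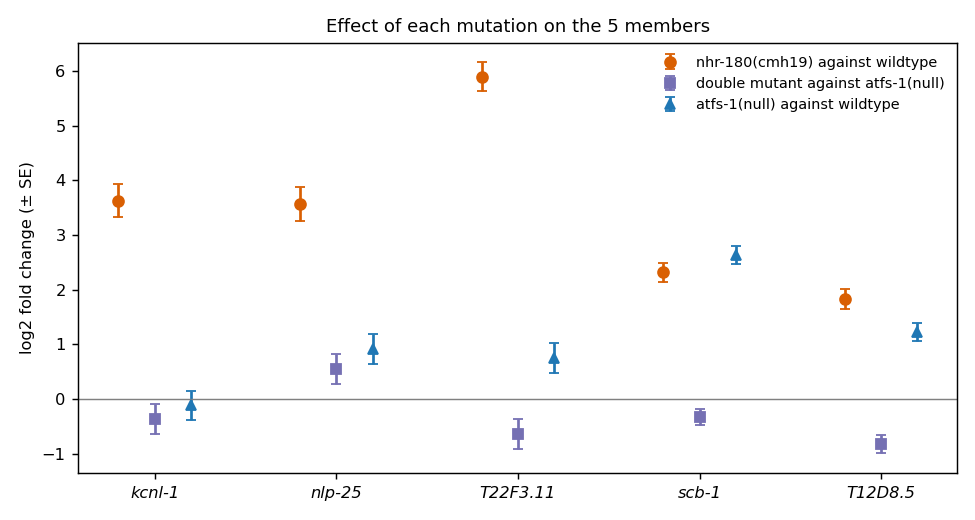
Log2 fold change (points) and standard error (bars) of each gene from the edgeR fit for nhr-180 against wildtype, double mutant against atfs-1(null), and atfs-1(null) against wildtype. The first runs from 1.84 to 5.90, the second from -0.83 to 0.56, and atfs-1(null) against wildtype separates scb-1 at 2.64 and T12D8.5 at 1.23 from the other genes, which lie between -0.11 and 0.92.

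The size of the interaction can be read as the gap between the double mutant and the level it would have had if the effects of both single mutations had multiplied. For kcnl-1 that product was 114.5 CPM and the measured mean 7.20 CPM, a ratio of 15.9. For T22F3.11 it was 55.0 against 0.581 CPM, a ratio of 94.8. The ratio was 8.04 for nlp-25, 6.35 for T12D8.5 and 6.26 for scb-1. The interaction was thus much alike in scb-1 and T12D8.5, although the double mutant mean was 4.98 times that of wildtype for scb-1 and 1.32 times for T12D8.5. As fitted coefficients on the log2 scale the interactions were -6.54 ± 0.38 for T22F3.11, -3.99 ± 0.40 for kcnl-1, -3.01 ± 0.41 for nlp-25, -2.67 ± 0.25 for T12D8.5 and -2.64 ± 0.23 for scb-1.

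**Figure D3:**
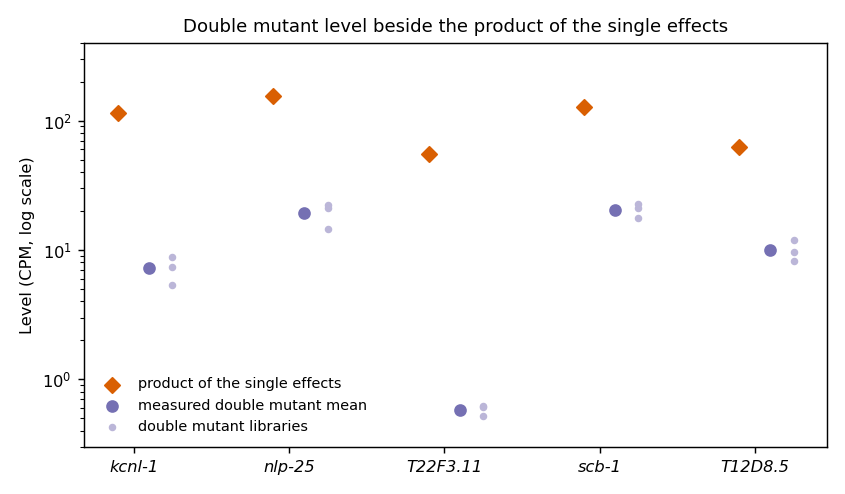
For each gene, the level in CPM (log axis) that multiplied single-mutation effects would give (diamonds), the measured double mutant mean (large circles) and the 3 double mutant libraries (small circles). The measured means lie below the diamonds by factors from 6.26 in scb-1 to 94.8 in T22F3.11.

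The levels of these genes were modest on a per-length scale. In the nhr-180 libraries the mean TPM was 53.6 for nlp-25, 40.4 for T12D8.5, 38.9 for kcnl-1, 32.4 for scb-1 and 20.98 for T22F3.11. In wildtype the order differed, with T12D8.5 at 11.3 TPM, scb-1 at 6.49, nlp-25 at 4.57, kcnl-1 at 3.14 and T22F3.11 at 0.343. In whole worms a change in the number of cells that express a gene and a change in RNA per cell cannot be told apart.

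In none of the 8 marker lists did the nhr-180 libraries stand above all other libraries, as they did for kcnl-1, nlp-25 and T22F3.11. The summed level of 15 neuronal genes was 766 to 868 CPM in nhr-180, against 853 to 953 CPM in wildtype and 845 to 920 CPM in the double mutant. That of 15 hypodermal genes was 7041 to 8282 CPM in nhr-180, 6858 to 7606 CPM in wildtype and 3847 to 6390 CPM in the double mutant. Abundant collagen genes carry much of that sum: the median log2 fold change of the 15 in nhr-180 against wildtype was -0.43, with 0 called and 4 at an unadjusted p under 0.05 (edgeR). The sum for 15 genes of the molting cycle was 3499 to 3910 CPM in nhr-180, below the 4647 to 6891 CPM of wildtype. In the double mutant that sum was 3643 to 4747 CPM. In nhr-180 against wildtype 0 of the 15 were called higher and 2 lower, noah-1 and noah-2, where 1.57% and 0.662% of all genes were. These 2 averaged 372 and 316 CPM in nhr-180, against 769 and 508.5 CPM in the double mutant. The median log2 fold change of the 15 was -0.43, with 8 at an unadjusted p under 0.05 (edgeR). Of these 8, nas-36 and bli-5 were higher in nhr-180 (0.77 ± 0.26 and 0.77 ± 0.27) and the others lower. In the interaction 0 were called, with a median of 0.62 and 6 at an unadjusted p under 0.05. For 17 sperm genes it was 778 to 832 CPM in nhr-180, above the 288 to 693 CPM of wildtype but within the range of the other mutants, with 1 gene at 0 in a library of each genotype. The 19 oocyte genes summed to 866 to 1042 CPM in nhr-180, inside the wildtype range of 528 to 1122 CPM, and to 2580 to 3792 CPM in the double mutant. The body wall muscle, intestine and germline lists overlapped between nhr-180 and wildtype. The part of molting stage and of the germline in the levels of the 5 genes was not tested.

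The genes around the 5 were not used to choose them and were tested. Within 25 kb of a start lay 78 other annotated genes, of which 36 passed the filter. The 5 genes themselves were not counted, so nlp-25, adjacent to kcnl-1, is not among the 36. In nhr-180 against wildtype, 1 of the 36 was called at an adjusted p under 0.05 by edgeR's quasi-likelihood test, or 2.78%, near the 2.24% of all genes. In the interaction 1 of 36 was called, 2.78% against 1.14% of all genes, and it was the same gene, oac-1. In atfs-1(null) against wildtype 6 were called, 16.7% against 14.3%; 2 were higher and 4 lower, where 7.54% and 6.77% of all genes were. In the double mutant against nhr-180 8 were called, 22.2% against 18.5%; 2 were higher and 6 lower, where 10.3% and 8.21% of all genes were. In the double mutant against wildtype 7 were called, 19.4% against 16.3%; 2 were higher and 5 lower, where 10.1% and 6.27% of all genes were. Where the nhr-180 mutation was added to atfs-1(null), 0 of the 36 neighbours were called, against 0.443% of all genes.

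The called neighbour oac-1, of a family named for homology to O-acyltransferases, starts at -14383 bases from the start of kcnl-1. It held 8.81, 7.96 and 8.80 CPM in wildtype and 8.18, 12.6 and 10.1 CPM where atfs-1 alone was lost, 23.1 and 20.1 CPM in nhr-180, and 9.22, 9.11 and 6.30 CPM in the double mutant. Its nhr-180 libraries thus lay above all others, as in kcnl-1, but by a smaller factor. It was higher in nhr-180 than in wildtype by 1.34 ± 0.22 on the log2 scale (edgeR, adjusted p = 0.0111) and lower in the double mutant than in nhr-180 (-1.39 ± 0.22, adjusted p = 0.00317). The first call was lost without wildtype replicate 2 (adjusted p = 0.0505) or 3 (0.0603), and without nhr-180 replicate 2 (0.150) or 3 (0.0657), while the second held whichever library was left out, up to an adjusted p of 0.0333. The interaction of oac-1 was -1.67 ± 0.30 (adjusted p = 0.0258), and it kept its sign but lost its call with the replicate number as a block (adjusted p = 0.0529), in limma on TPM and when any of 8 of the 11 libraries was left out (all but atfs-1(null) replicates 1 and 3 and double mutant replicate 3), with adjusted p-values from 0.0556 to 0.146 without 1 library.

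On the other side of the pair, grsp-1 starts 3314 bases after the start of nlp-25. It held 20.5 and 24.8 CPM in nhr-180 against 10.3, 10.9 and 11.5 CPM in wildtype, 4.36, 7.63 and 8.15 CPM where atfs-1 alone was lost, and 8.44, 5.85 and 6.16 CPM in the double mutant. It was lower in the double mutant than in nhr-180 (-1.73 ± 0.26, edgeR adjusted p = 0.00239). Its difference from wildtype in nhr-180, 1.06 ± 0.26, missed the threshold (adjusted p = 0.0612), though it passed by DESeq2 (0.00631) and without atfs-1(null) replicate 1 (0.00974). The interaction, -1.03 ± 0.35, was not called (adjusted p = 0.217) except without atfs-1(null) replicate 1 (0.0311) or without that library and wildtype replicate 2 together (0.0366). The next peptide gene, nlp-26, 7281 bases from the start of nlp-25, gave -0.54 ± 0.36 in nhr-180 against wildtype (adjusted p = 0.443).

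**Figure D4:**
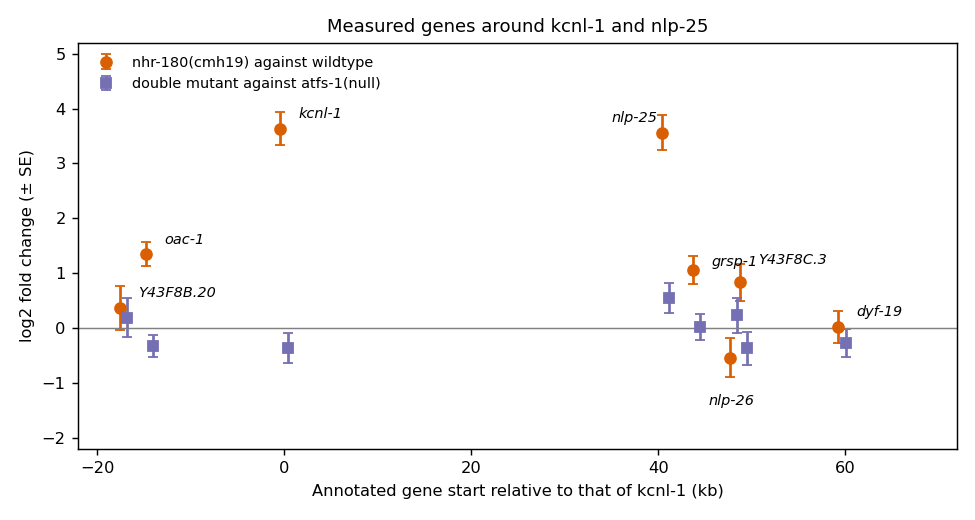
Log2 fold change with its standard error for the tested genes around kcnl-1 and nlp-25, placed by the distance of their annotated start from that of kcnl-1 in kb, for nhr-180 against wildtype (circles) and for double mutant against atfs-1(null) (squares). The circles of kcnl-1 and nlp-25 are above 3.5, those of oac-1 and grsp-1 are 1.34 and 1.06, that of nlp-26 is -0.54, and the squares lie between -0.36 and 0.56.

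Around the other 3 genes no neighbour was called in nhr-180 against wildtype or in the interaction. Of all tested genes, 29.1% were called in at least 1 of the 6 comparisons. Around T22F3.11, 5 neighbours were tested and 3 called in some comparison, a number too small to read against that share, among them T22F3.10, which was lower in the double mutant than in nhr-180 (-1.69, adjusted p = 0.0453), and T22F3.8, lower in atfs-1(null) than in wildtype (-1.48, adjusted p = 0.0297). Around scb-1, 13 were tested and 4, or 30.8%, called in some comparison, among them folt-1, a folate transporter gene, lower in atfs-1(null) than in wildtype (log2 fold change -1.1, edgeR adjusted p = 0.00296). Around T12D8.5, 12 were tested and 3, or 25%, called, among them hip-1, higher in atfs-1(null) than in wildtype (0.61, edgeR adjusted p = 0.00523). The ends of scb-1 and T12D8.5 overlap genes on the opposite strand by 59 and 36 bases, math-33 and taf-9. The libraries are stranded per the labels, with the strand setting of the counting not given in the sources used here. Neither partner was called: in nhr-180 against wildtype math-33 gave -0.27 (adjusted p = 0.713) and taf-9 -0.16 (adjusted p = 0.757).

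In the families and pathways listed beside the described genes, few or no genes were called in nhr-180 against wildtype or in the interaction. With 2.24% of all genes called in nhr-180 against wildtype and 1.14% in the interaction, a count of 0 in lists of this size is near the background and says nothing particular about them. Of 35 other potassium channel genes tested, edgeR called 0 in nhr-180 against wildtype (1 had an unadjusted p under 0.05, and DESeq2 called 1) and 0 in the interaction (0 under 0.05, 0 by DESeq2), with a median log2 fold change of -0.13 for the former against -0.02 over all genes. Of 14 tested nlp and cnc genes, epidermal peptide precursors known for antimicrobial defence, edgeR called 0 in nhr-180 against wildtype (2 under 0.05 unadjusted, 1 by DESeq2) and 0 in the interaction (3 under 0.05 unadjusted, 1 by DESeq2), where the first median was -0.19. In atfs-1(null) against wildtype 4 of the 14 were called higher and 2 lower, where 7.54% and 6.77% of all genes were. The log2 fold changes were 2.52 ± 0.20 for cnc-4, 2.70 ± 0.39 for cnc-2, 1.30 ± 0.25 for nlp-34, -1.62 ± 0.39 for nlp-24 and -0.86 ± 0.21 for nlp-33 (edgeR adjusted p from 2.2e-05 to 0.0196). The other higher one, cnc-7, averaged 0.621 ± 0.376 CPM in atfs-1(null) (SD, n = 3) and had 0 counts in every wildtype library, so no fitted fold is given.

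Of 30 tested DNA damage response genes, listed because of scb-1, edgeR called 0 in nhr-180 against wildtype (2 under 0.05 unadjusted, 0 by DESeq2) and 0 in the interaction (4 under 0.05 unadjusted, 1 by DESeq2). In the double mutant against nhr-180, 16 were higher and 1 lower, against 10.3% and 8.21% of all genes, with a median of 0.70 against -0.01 over all genes. Among them cku-70, cku-80 and mre-11, which act in the repair of DNA double-strand breaks, were higher by 1.22 ± 0.18, 0.95 ± 0.14 and 1.05 ± 0.18 (edgeR adjusted p = 0.00243, 0.00259 and 0.00452). In the same comparison scb-1 gave -0.00 ± 0.17. The oocyte list above was also higher in the double mutant, and its part in this count was not tested.

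Of 15 genes of the osmotic and epidermal damage response, 1 was called in nhr-180 against wildtype: hmit-1.2, a proton-coupled inositol transporter gene, had a log2 fold change of -0.95 ± 0.20 (edgeR adjusted p = 0.0352), where 0.662% of all genes were called lower. That count fell to 0 in limma on TPM and when any of 6 libraries was left out, which were both nhr-180 libraries, wildtype replicates 2 and 3 and double mutant replicates 1 and 2. No role given above for the described genes is of the SLC17 transporter type. Of 13 genes of that type, 1, the vesicular nucleotide transporter gene vnut-1, was called lower in nhr-180 against wildtype, where 0.662% of all genes were. It averaged 29.7 ± 0.398 CPM in wildtype, 9.004 ± 3.09 in atfs-1(null), 7.12 ± 1.30 in nhr-180 and 8.51 ± 2.40 in the double mutant (SD, n = 3, 3, 2 and 3). Its log2 fold change in nhr-180 against wildtype was -2.06 ± 0.31 (edgeR adjusted p = 0.00626), lost without nhr-180 replicate 2 (0.0629) or 3 (0.114). Its interaction was 1.98 ± 0.39 (edgeR adjusted p = 0.0387), where 0.275% of all genes were called positive. That call was lost in limma on TPM and without any 1 of 9 libraries (all but atfs-1(null) replicates 1 and 3), with adjusted p-values up to 0.250.

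Across the genome 118 genes, 0.737% of those tested, were called higher in nhr-180 than in wildtype and negative in the interaction, and all 5 described genes are among them. Their ranks by interaction among the 118 were 1 for T22F3.11, 16 for kcnl-1, 34 for nlp-25, 43 for T12D8.5 and 45 for scb-1. The 118 had a median log2 fold change of 1.77 in nhr-180 against wildtype and 1.57 in atfs-1(null) against wildtype. Both values are partly set by the choice, since the comparisons share the wildtype libraries and the interaction counts the atfs-1(null) level with a negative sign. In 80 of them the fitted atfs-1(null) level was at least 2 times that of wildtype, as in scb-1 and T12D8.5. In the other 38 it was within 2-fold of wildtype, as in kcnl-1, nlp-25 and T22F3.11. In 35 of these 38 the fitted double mutant level was within 2-fold of wildtype as well. The gene nlp-25 was not among the 35, with a double mutant log2 fold change of 1.47 against wildtype. The count of 118 ranged from 42 to 188 when 1 library was left out.

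**Figure D5:**
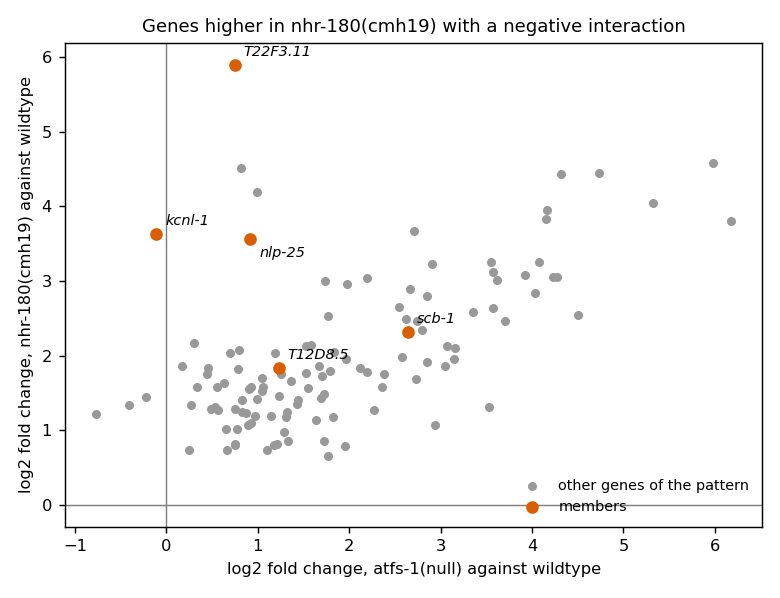
Log2 fold change of atfs-1(null) (x axis) and of nhr-180 (y axis) against wildtype for the 118 genes called higher in nhr-180 and negative in the interaction; the 5 described genes are the large points labelled as members, and both axes share the wildtype libraries. T22F3.11, kcnl-1 and nlp-25 lie at x values from -0.11 to 0.92 with y values above 3.5, while scb-1 lies at 2.64 and 2.32.

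Among the 10 other genes with the most negative interaction, 9 resembled scb-1 and T12D8.5 in having an atfs-1(null) mean at least 2 times that of wildtype. The ranking itself favours such genes, since the interaction counts the atfs-1(null) level with a negative sign. C50F7.5 averaged 0.733 CPM in wildtype, 29.5 in atfs-1(null), 12.2 in nhr-180 and 7.93 in the double mutant, and dod-3 averaged 0.493, 35.96, 6.99 and 15.4 CPM. The long noncoding RNA tts-1 averaged 2.60, 165, 62.4 and 93.3 CPM. An exception was hlh-17, which encodes a basic helix-loop-helix transcription factor: its 2 nhr-180 libraries held 3.44 and 4.79 CPM, against 0.0941 to 0.420 CPM in the other 9. It shared with T22F3.11 the form in which only the nhr-180 libraries were high. The clec-61 gene, a C-type lectin, had a wildtype mean of 0.445 CPM and means of 11.98, 9.82 and 12.7 CPM for atfs-1(null), nhr-180 and the double mutant.

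By chromosome, 54 of the 118 lay on V, or 45.8%, where 20.5% of the tested genes lie, and 28 lay on IV, or 23.7% against 17%. Of the 5 described genes, 4 are on V, as are atfs-1 and nhr-180 themselves. T22F3.11 lies 2.95 Mb from nhr-180 and scb-1 3.07 Mb from atfs-1, while kcnl-1 and nlp-25 lie 18.9 Mb from nhr-180 and 5.37 and 5.41 Mb from atfs-1. Sequence differences between the stocks near these loci were not tested.

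The genes whose levels followed each of the 5 most closely were found by Pearson's r of log2 CPM over the 11 libraries, among 14155 genes with a mean of at least 1 CPM. These coefficients describe a likeness that 2 high libraries can set, and the values share the same libraries. For kcnl-1 they were F48G7.8 (r = 0.97), K08D10.14 (0.96) and scrm-4, of the phospholipid scramblase family (0.95). For T22F3.11 they were ech-9, of the enoyl-CoA hydratase family (0.96), K08D10.14 (0.95) and F46C5.1 (0.95), the last with means of 10.6 CPM for nhr-180 and 0.569 CPM for wildtype. For nlp-25 they were ZC196.4 (0.96), fbxa-69, of the F-box A family (0.95), and pals-39 (0.93). For scb-1 they were tts-1, F43C11.7 and ZC443.3 (0.98 each), and tts-1 is thus both the closest to scb-1 and among the largest interactions. For T12D8.5 they were T12A7.6, F46A9.1 and Y46H3D.1 (0.94 each). Among the 5 themselves, r was 0.95 between kcnl-1 and T22F3.11, 0.86 between nlp-25 and T22F3.11, 0.77 between kcnl-1 and nlp-25, and 0.13 between kcnl-1 and scb-1. F48G7.8, the closest to kcnl-1, lies at 627022 to 627685 on chromosome V, near nhr-180 itself at 665919 to 667510. Sequence differences between the stocks there were not tested.

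For comparison, fmo-2, a flavin-containing monooxygenase gene, averaged 3.97 CPM in wildtype, 25.97 in atfs-1(null), 50.6 in nhr-180 and 28.2 in the double mutant. It shows the form of scb-1 with nhr-180 as the highest group. The pud-2.1 gene averaged 0.142, 1.81, 1.19 and 1.12 CPM in the same order. Its nhr-180 and double mutant means were close to each other and its atfs-1(null) mean was the highest, as for scb-1. In nhr-180 against wildtype the other pud genes compared, pud-1.1, pud-1.2 and pud-2.2, gave 1.24, 2.01 and 2.13 on the log2 scale. None of these was called there or in the interaction (edgeR adjusted p from 0.0923 to 0.480).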

How the data were processed

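Whole L4 larvae of 4 genotypes gave 11 libraries. The authors deposited raw counts per gene (featureCounts 1.5.2, from the submitters' processing notes) and a table of TPM values, length-normalised by the authors. Aligner, annotation release and strand setting were not given in the sources used here. Of the gene identifiers, 46920 matched WBcel235 (Ensembl annotation), which gave positions and strands.

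Counts were filtered with filterByExpr and scaled by TMM in edgeR 4.0.16 (R 4.3.3). The 11 libraries entered 1 quasi-likelihood model with a mean for each genotype, which was tested on simulated data. Calls required an adjusted p under 0.05 (Benjamini-Hochberg over 16013 genes, two-sided). The interaction is the nhr-180 effect in atfs-1(null) minus that in wildtype. All values are CPM unless TPM is named, as mean ± SD, or log2 fold change ± SE. The common biological coefficient of variation was 21.7%. Intervals between libraries cover the spread of these samples only.

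The 5 genes, the lists (potassium channels, epidermal nlp and cnc peptides, SLC17-type transporters, DNA damage response, osmotic response, cell type markers), the comparison genes and the tests were chosen with earlier results of these data known. Genes with no known role in the sources were taken off the SLC17 list after the files were seen. Named beside the 5 are atfs-1 and nhr-180, the 3 most correlated genes per gene, the 10 most negative interactions sharing the pattern, examples of called neighbours within 25 kb, comparison genes (tts-1, fmo-2, pud) and called list genes, with up to 4 per list. The list genes named for other comparisons, grsp-1, nlp-26 and the overlapping math-33 and taf-9 were named after their values were seen.

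Other settings tried were the DESeq2 1.42.0 Wald test, its size factors in edgeR, fitting all genes without a filter, a block for the replicate number, fitting the compared groups only, limma 3.58.1 on log2(TPM + 1) or log2(TPM + 0.1), also after requiring 1 TPM in 2 libraries, leaving out each library, and, added after seeing the data, leaving out atfs-1(null) replicate 1 and wildtype replicate 2 together.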

Additional observations from a re-analysis of the deposited data

Results flagged for a closer look

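Each value here is an interaction, the difference on the log2 scale between the effects of the nhr-180 mutation with and without atfs-1; these genes were marked because that effect differed between the atfs-1 backgrounds. The described genes gave -6.54 (T22F3.11), -3.99 (kcnl-1), -3.01 (nlp-25), -2.67 (T12D8.5) and -2.64 (scb-1). All of them but nlp-25, and the 10 genes that follow, were chosen on this same value, so it is no test of them. The gene nlp-25 was chosen for its place next to kcnl-1, with earlier results of these data known. Those 10 gave -5.95 (C50F7.5), -5.40 (tts-1), -5.03 (dod-3), -5.02 (hlh-17), -4.41 (F55H12.9), -4.38 (F47B8.4), -4.37 (T26H5.4), -4.37 (clec-61), -4.31 (clec-52) and -4.29 (tsp-5). The comparison genes fmo-2 and pud-2.1 gave -3.55 and -3.70. The neighbour oac-1 gave -1.67 (edgeR adjusted p = 0.0258) and vnut-1 gave 1.98 (edgeR adjusted p = 0.0387), the positive value among these genes.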

How the results depend on the processing

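Of 595 recomputed fold changes of the 5 genes, 572 moved by less than the spread between replicates and 23 moved by more with their sign kept. A change of sign with a move above that spread occurred in 0. Values near 0 could change sign within the spread. One was kcnl-1 in atfs-1(null) against wildtype, at -0.11, or 0.15 without atfs-1(null) replicate 1. The stability of the 5 genes in nhr-180 against wildtype and in the interaction is no independent support. All but nlp-25 were chosen on those values, and nlp-25 with earlier results of these data known. On log2(TPM + 1), with or without the minimum, T22F3.11 gave 4.01 (nhr-180 against wildtype) and -4.21 (interaction) (5.57 and -6.07 with a pseudocount of 0.1), kcnl-1 gave an interaction of -3.47, and scb-1 gave 2.15 and -2.43; a pseudocount shrinks the change of low genes by construction.

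Leaving out 1 library in turn gave nhr-180 against wildtype ranges of 3.56 to 3.70 (kcnl-1), 3.31 to 3.89 (nlp-25), 5.67 to 6.09 (T22F3.11), 2.30 to 2.35 (scb-1) and 1.72 to 1.95 (T12D8.5), and interactions of -4.28 to -3.78, -3.33 to -2.76, -6.73 to -6.31, -2.74 to -2.52 and -2.79 to -2.54 in the same order.

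Counts of called genes ranged from 75 (without nhr-180 replicate 2) to 1042 (without atfs-1(null) replicate 1) for nhr-180 against wildtype, 27 to 812 on adding nhr-180 to atfs-1(null), 1132 to 2408 for atfs-1(null) against wildtype, 437 to 4332 for the double mutant against nhr-180, 1121 to 4069 for the double mutant against wildtype, 65 to 456 for the interaction and 42 to 188 for the shared pattern. Neighbours called ranged over 0 to 3, 2 to 7, 2 to 11 and 3 to 9 for nhr-180 against wildtype, atfs-1(null) against wildtype, the double mutant against nhr-180 and the double mutant against wildtype, and 0 to 2 for the interaction. Lists ranged over 0 to 2 (potassium channels, nhr-180 against wildtype) and 0 to 1 (DNA damage and SLC17 in that comparison and the interaction, osmotic in that comparison).

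The DESeq2 Wald test called 907 in nhr-180 against wildtype, 241 on adding nhr-180 to atfs-1(null), 488 in the interaction and 232 in the shared pattern. It called 3 neighbours, 1 potassium channel and 1 epidermal peptide in nhr-180 against wildtype, and 1 epidermal peptide and 1 DNA damage gene in the interaction. No filter gave 150 on adding nhr-180 to atfs-1(null) and 2 neighbours in nhr-180 against wildtype. Fitting the compared groups only gave 17 and 1161 on adding nhr-180 to atfs-1(null) and atfs-1(null) against wildtype, 3 and 2 neighbours in nhr-180 and atfs-1(null) against wildtype, and 1 potassium channel, 1 epidermal peptide and 1 DNA damage gene in nhr-180 against wildtype. The TPM fits gave 113 on adding nhr-180 to atfs-1(null) (pseudocount 1), 3 neighbours in atfs-1(null) against wildtype, 4 in the double mutant against wildtype (with the minimum), and 0 for neighbours and SLC17 in the interaction and for the osmotic list. Without both libraries that stood apart the counts were 555 (nhr-180 against wildtype), 982 (adding nhr-180 to atfs-1(null)), 4643 (double mutant against nhr-180) and 482 (interaction), with 2, 3 and 2 neighbours in nhr-180 against wildtype, atfs-1(null) against wildtype and the interaction, and 1 potassium channel and 1 DNA damage gene. The cause of these shifts was not tested.

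The replicate numbers are not known to pair the libraries. Deviations of same-numbered libraries correlated from -0.41 to 0.613, with 5 of 15 above 0.1. Those of different-numbered libraries correlated from -0.54 to 0.41, with 12 of 30 above 0.1. With the replicate block, 695 genes were called in nhr-180 against wildtype, where the main fit called 358. In that comparison the block fit called 2 neighbours and 1 DNA damage gene, and in the interaction 0 neighbours.

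The nhr-180 group has 2 libraries, which give a poor estimate of its own spread. Counts of 7 to 25 limit T22F3.11 outside nhr-180.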
